A study of Mus musculus with 6 samples.

Results

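The Tle genes encode the mammalian counterparts of Groucho, a co-repressor first described in the fly. The 6 genes Tle1 to Tle6, out of 18194 named on the array, were measured in mouse gonadal epithelium, the surface layer of the early gonad on the urogenital ridge, at E10.5. They were chosen by gene symbol in the platform's annotation, and all 12 of the 45101 probe sets on the array that carry only 1 of these symbols are shown. The family was selected on earlier results of the comparison of Emx2 knockout (KO) with wild-type arrays, so its differences in that comparison are given below as a description, with no test of their own. Laser microdissection took this epithelium from frozen sections of wild-type fetuses (+/+) and of fetuses with both copies of Emx2 disrupted (−/−), Emx2 being a homeobox gene that the urogenital system needs in order to form. Each of 3 wild-type and 3 KO arrays carried RNA from a pool of 3 fetuses, amplified over 2 rounds before hybridisation. Such amplification shortens the copies, and a probe set far from the 3′ end of a transcript may read low. The labels do not say which part of Emx2 is missing or whether pools shared a litter. Fewer cells that express a gene and less RNA per cell cannot be told apart in such pools.

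Tle proteins do not bind DNA. They are brought to genes by transcription factors, among them the Hes and Runx families, the Tcf and Lef factors of the Wnt pathway in the absence of beta-catenin, and many homeobox, Pax and T-box proteins that carry a short motif called eh1. Full-length members hold an N-terminal part through which they join into larger complexes and a C-terminal WD-repeat domain that grips the partner's peptide, and they recruit histone deacetylases. Tle1, Tle2, Tle3 and Tle4 are of this full-length kind. Tle5, long known as Aes, lacks the WD-repeat domain and can weaken repression by the others, and Tle6 is a divergent member best known from the oocyte.

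The members differed in direction. Tle3 was higher in the KO pools, whereas Tle1, Tle4 and Tle6 were lower, and Tle2 and Tle5 did not pass the threshold. Of the 12 probe sets, 10 were bright enough to be tested. In the fit across all 27022 tested probe sets, 2 of these 10 were called higher and 3 lower at an adjusted p under 0.05. Over all tested probe sets 4.68% were called, 2.75% higher and 1.93% lower. The 3 values of one group lay wholly above those of the other at 7 of the 10 Tle probe sets and at 22% of all tested probe sets. The median log2 fold change, KO minus wild-type, was −0.43 over the 10 Tle probe sets and 0.01 over all. Because the family was chosen with this comparison known, nothing is read from these shares.

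Promoter sequences were looked at because members moved in opposite directions. In the RefSeq promoter table of build GRCm38.p6, 5 of the 6 genes have an entry, with 7 start sites in all and 300 bases for each, from 250 before to 50 after the start. Tle5 has no promoter entry. An E-box, the hexamer CACGTG that helix-loop-helix factors bind, was found in 1 promoter each of Tle3, Tle4 and Tle6. In all of them it sat inside the same 10 letters, CCCACGTGGG, which read alike on both strands and which were picked out after the sequences were seen. The 3 stretches of 60 bases are shown because they hold this shared element, which is in capitals. The sequence is on the gene's own strand, 5′ to 3′.
Tle3, chr9:61372271-61372330, plus strand: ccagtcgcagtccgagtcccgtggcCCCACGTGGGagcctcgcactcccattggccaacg
Tle4, chr19:14598361-14598420, minus strand: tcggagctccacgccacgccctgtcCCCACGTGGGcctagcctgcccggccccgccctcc
Tle6, chr10:81601051-81601110, minus strand: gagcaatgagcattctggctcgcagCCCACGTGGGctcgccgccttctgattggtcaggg

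The element began 70 bases before the annotated start of Tle3, 212 before that of Tle4 and 185 before that of Tle6. Of all 32851 promoters in the table, 39 (0.119%) held these 10 letters and 2349 (7.15%) held the E-box, which lies within them. It was shared by Tle3, which was higher in the KO pools, and by Tle4 and Tle6, which were lower. Tle6 had a further E-box, without the flanking letters, 119 bases before the same start. On both strands, the N-box CACNAG, a site for Hes proteins, was found in 2 of the 7 member promoters (Tle2 and Tle3), against 42.5% of all promoters. The letters TTCCCAC, bound by the Notch effector RBPJ, were found in 1 (the second start of Tle6), against 6.38%. Neither CTTTGAT, a Tcf and Lef site, nor TAATTA, a homeodomain site, was in any of the 7 windows, and they stood in 3.73% and 5.29% of all promoters. A match is a run of letters, and binding was not measured.

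**Figure D1:**
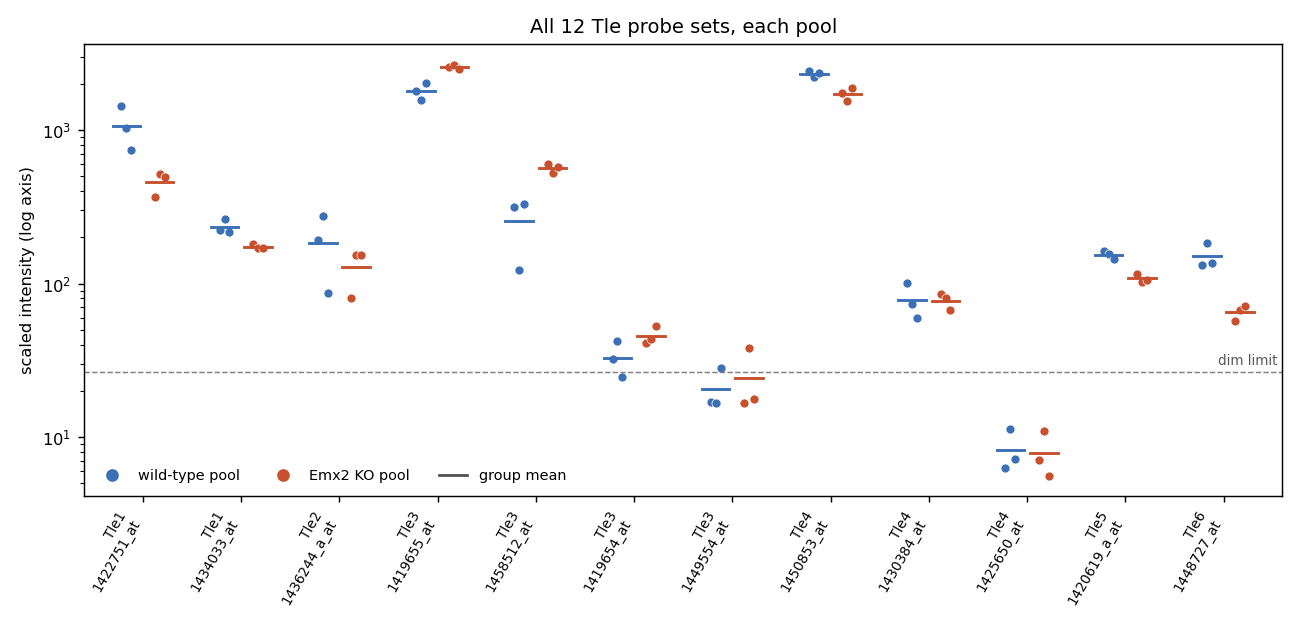
Scaled intensity on a log axis at all 12 Tle probe sets, by gene. Points are pools (blue wild-type, orange Emx2 KO, 3 each), short lines are group means, and the dashed line is the dim limit of 26.7. At the brightest probe set, the KO pools of Tle1 lie below all wild-type pools and those of Tle3 above them.

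Tle1, a full-length co-repressor that partners Hes, Runx and forkhead proteins, was lower in the KO epithelium. At its brighter probe set, 1422751_at, the scaled intensity was 1433, 1031 and 743 in wild-type pools 1, 2 and 3, and 368, 519.9 and 498 in the KO pools. The groups did not overlap, although the wild-type pools spread over a wide range, and the lowest of them stood well above the highest KO pool. The means were 1069 ± 346 and 462 ± 82.1 (SD, n = 3 each), a log2 fold change of −1.18 (SE 0.21), or 2.26 times less in KO. This probe set was called. The other, 1434033_at, read 223, 265 and 218 in wild-type, compared with 182, 170.1 and 169.7 in KO pools. Its groups did not overlap either, but the difference was smaller at −0.43 (SE 0.16, 95% interval −0.78 to −0.08) and was not called. Averaged over both probe sets, an alternative added after seeing the data, Tle1 gave −0.80 (SE 0.14) and was called.

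Tle6, the divergent member, was lower in the KO pools by a similar factor, on a dimmer signal. Its only probe set, 1448727_at, read 132, 183 and 136 in wild-type pools and 57.2, 67.5 and 71.8 in KO pools. The groups were well apart, each KO pool being below every wild-type pool. Means of 150.5 ± 28.6 and 65.5 ± 7.49 (SD, n = 3 each) gave a log2 fold change of −1.19 (SE 0.21), and the probe set was called. The size of this fall depends on how low values are treated. With a pseudocount of 32 in place of a floor on low values it was −0.90, still called.

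Tle4, a full-length member, differed less. The probe set 1450853_at was among the brightest of the family. It read 2441, 2209.7 and 2354 in wild-type, compared with 1754, 1545 and 1873 in KO pools, with no overlap. The means were 2335 ± 117 and 1724 ± 166 (SD, n = 3 each), and the log2 fold change of −0.44 (SE 0.10) was called. It was no longer called without wild-type pool 1 (−0.41), KO pool 1 (−0.46) or KO pool 2 (−0.36). At the dimmer 1430384_at the pools read 101, 73.6 and 59.3 in wild-type, compared with 85, 80.1 and 67.3 in KO, the KO values lying inside the wild-type range. The difference there was 0.02 (SE 0.25, 95% interval −0.52 to 0.55), so the probe sets of this gene do not give the same value. Averaged over both, Tle4 gave −0.21 (SE 0.13) and was not called. The remaining 1425650_at lay between 5.61 and 11.3 in all pools, at or below the floor of 8.06 in 4 of 6, and was not tested.

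Tle3, a full-length member and a partner of Tcf factors, was the only gene of the family with a probe set called higher in KO. At 1419655_at the wild-type pools read 1791, 1569.7 and 2030.3 and the KO pools 2563, 2677 and 2522. All KO pools stood above all wild-type pools, and the KO pools were close together. With means of 1797 ± 230.4 and 2587 ± 80.3 (SD, n = 3 each), the log2 fold change was 0.53 (SE 0.10), or 1.45 times, and it was called.

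A second Tle3 probe set, 1458512_at, which the annotation ties to an expressed sequence tag and not to the RefSeq transcript behind the gene's other probe sets, gave a greater difference. It read 318, 123 and 328 in wild-type, compared with 605, 529 and 579 in KO pools. The groups did not overlap, and wild-type pool 2 lay far below the other 2 wild-type pools. The log2 fold change was 1.28 (SE 0.29) and was called. Without wild-type pool 2 it was 0.82 and still called, whereas with KO pool 1, 2 or 3 left out it was 1.24, 1.34 or 1.27 and was not. The dim 1419654_at, just inside the limit on brightness, read 32.1, 42.3 and 24.6 against 41, 43.6 and 53.1. Its groups overlapped, and at 0.50 (SE 0.30, 95% interval −0.15 to 1.16) it was not called. Just outside the limit, 1449554_at ranged from 16.6 to 28.1 in wild-type pools and from 16.7 to 37.9 in KO pools. Averaged over its 3 tested probe sets, Tle3 gave 0.77 (SE 0.13) and was called.

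Tle5, the short member without a WD-repeat domain, was measured by 1 probe set, 1420619_a_at. It read 163, 155 and 145 in wild-type, compared with 116, 103 and 105 in KO pools. Here too the groups did not overlap, and the pools within each were close. The means were 154 ± 9.23 and 108 ± 6.64 (SD, n = 3 each), and the log2 fold change of −0.52 (SE 0.18, 95% interval −0.90 to −0.13) was not called after adjustment over all probe sets.

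Tle2, the remaining full-length member, had 1 probe set, 1436244_a_at, with the widest scatter among those of comparable brightness. It read 193, 274 and 86.3 in wild-type, compared with 80.8, 153 and 153 in KO pools. Wild-type pool 3 and KO pool 1 were both low, and the groups overlapped. A difference of −0.42 (SE 0.37, 95% interval −1.21 to 0.37) was not called, and its interval reaches well to either side of 0. The value moved to −0.06 without wild-type pool 2 and to −0.11 without KO pool 1, and to −0.89 without wild-type pool 3.

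Tle2, Tle5 and Tle6 lie close together on chromosome 10 in the RefSeq table, Tle5 being followed by 1 long non-coding RNA gene, then by Tle2 and Tle6. Tle2 and Tle6 face each other on opposite strands and their annotated spans overlap at the 3′ ends. The log2 fold changes along this row were −0.52, −0.42 and −1.19. Which strand and which part of each gene a probe set reads was not used here, so a signal shared between Tle2 and Tle6 was not tested. Tle1, Tle3 and Tle4 are on chromosomes 4, 9 and 19, and no member is on X or Y.

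**Figure D2:**
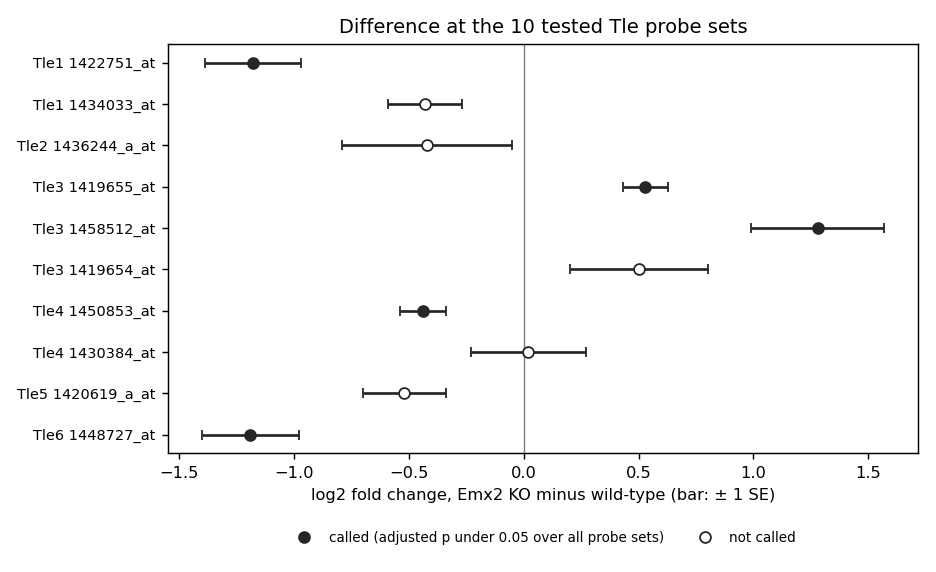
Log2 fold change (Emx2 KO minus wild-type, x axis) at the 10 tested Tle probe sets, with bars of 1 SE. Filled points were called over all probe sets. Tle1 at 1422751_at and Tle6 lie at −1.18 and −1.19, and both called Tle3 probe sets are above 0, at 0.53 and 1.28.

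Without the filter on dim probe sets, limma called 0 of the 12 Tle probe sets, and only 151 probe sets of the whole array. Without the intensity trend in the variance 1 was called, that of Tle6. Used as deposited, with arrays at unequal levels, 3 were called, those of Tle6, of Tle1 at 1422751_at and of Tle3 at 1458512_at. The separation of the groups at some probe sets also depends on the scaling. In the deposited values they overlapped at Tle3 1419655_at (2426.8 in wild-type pool 3, 2335.5 in KO pool 3). The same held for Tle4 at 1450853_at and Tle1 at 1434033_at. No member's called difference changed sign under any alternative run.

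**Figure D3:**
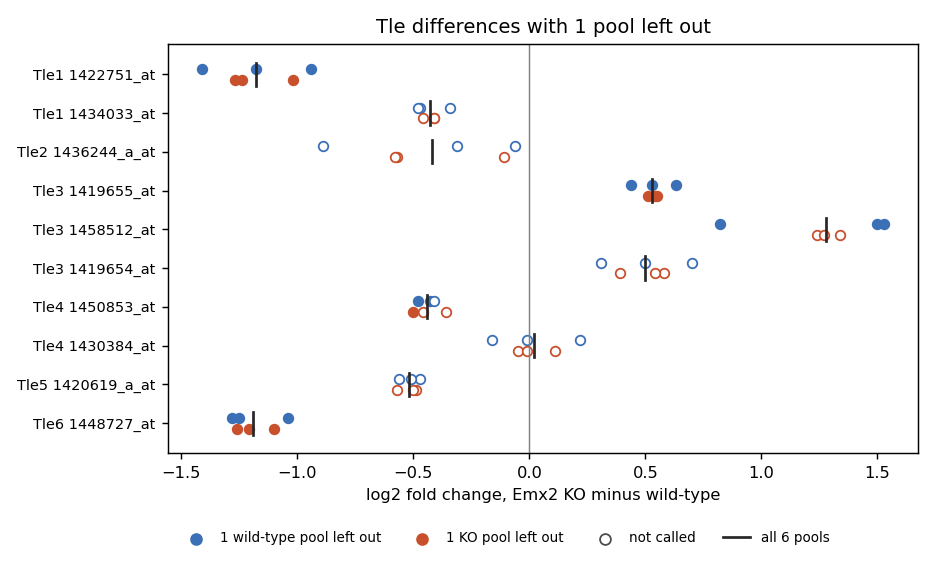
Log2 fold change (x axis) at the 10 tested Tle probe sets with 1 pool left out at a time, blue for a wild-type and orange for a KO pool, open where not called; black ticks are the values from all 6 pools. Tle1 at 1422751_at stays between −1.41 and −0.94, and Tle2 spreads from −0.89 to −0.06.

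Markers of other cell types and of fetal sex differed between the same pools. The summed intensity of 10 mesenchyme markers was 14304 to 16046 in wild-type, compared with 20814 to 21875 in KO pools. Of the 10, 6 were called higher and 0 lower (median log2 fold change 0.62). At an unadjusted p under 0.05 in limma, 8 were higher and 1 lower. The lower was Foxf1 (−0.77, SE 0.28, not called). Of 9 endothelial markers 7 were tested and 4 were higher (summed 891 to 1131 against 1498 to 1776, median log2 fold change 0.58), Pecam1 and Tie1 being too dim. Nephric duct markers were lower (199 to 218 against 58.2 to 106, 2 of 3 tested called, Pax2, Ret and Wnt9b too dim or not named on the array), as were germ cell markers (399 to 492 against 236 to 324, 2 of 4 tested called, Dazl and Nanos3 not tested). Markers of neural crest and neurons summed to 393 to 468 and 213 to 292, with 1 of 4 tested higher and 1 lower. The lower sum reflects Dct (means 268 and 24.1), whereas Stmn2 was called higher (45.7 and 105). Elavl4 (0.28 on the log2 scale) and Sox10 (−0.22) were not called. Those of blood overlapped (35614 to 37405 and 35787 to 37206, 0 of 6 called by limma, 1 at an unadjusted p under 0.05). Markers of the coelomic epithelium itself were present in every pool, 11 of 12 being tested, with sums of 26346 to 28907 and 24411 to 26788, 2 higher and 2 lower. Xist, made from the inactive X chromosome, read 13.4 to 70.5 in wild-type, compared with 9404 to 9977 in KO pools. The Y-linked Eif2s3y (means 783 and 162), Kdm5d (360.4 and 80) and Uty (235 and 53.5) were all called lower in KO. Markers of fetal sex thus differed along with genotype, and the 2 cannot be told apart in these pools. The part of the cell type differences in the Tle values was not tested. The Emx2 probe set read 1732 ± 413 and 1649 ± 139 (SD, n = 3 each) and, its place in the gene being unknown here, does not check the labels.

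Most genes that work with Tle proteins were not called. Over 5 lists of partners with 79 genes, each read by its brightest probe set, 49 were tested, of which 3 rose (6.12%), 1 fell (2.04%) and 45 did not pass. Over all 12315 genes measured in this way 2.93% rose and 2.48% fell. These lists too were chosen with earlier results of the data known, so nothing is read from these shares. The median log2 fold change of the 49 was 0.00. Of the 4 called, only Tbx18 was called without the filter on dim probe sets, and only Tbx18 and Osr1 without the intensity trend. Adjusted p-values below are from limma, over all tested probe sets.

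Among homeobox, T-box, Pax and related factors, many of which recruit Tle proteins through eh1 motifs, 14 of 34 were tested, with 2 higher and 1 lower (median log2 fold change −0.06). Tbx18, a T-box repressor of the coelomic lining and ureter that can bind Groucho proteins, read 583, 344 and 641 in wild-type, compared with 5178, 4505 and 5138 in KO pools (difference 3.29 on the log2 scale, SE 0.18, adjusted p = 9.95e-07). Osr1, a zinc finger factor of intermediate mesoderm, read 118, 164 and 128 against 251, 344 and 417 (1.29, SE 0.21, adjusted p = 0.00295). Pax8, a kidney factor that is also in the nephric duct list, read 91.7, 102 and 85.3 against 51.1, 38 and 24.4 (−1.36, SE 0.29, adjusted p = 0.0166). In none of these did the groups overlap. Pax8 was no longer called without wild-type pool 1 (−1.37), wild-type pool 2 (−1.29) or KO pool 3 (−1.07).

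Of the Tcf and Lef factors with beta-catenin and its adaptors, 9 of 10 were tested, 1 rose and 0 fell (median 0.05), with 2 higher and 1 lower at an unadjusted p under 0.05. Tcf7l1, a Tcf that acts chiefly as a repressor, read 1923, 1792 and 1952 in wild-type, compared with 2375, 2660.4 and 3001 in KO pools. All KO pools were higher (0.50, SE 0.10, adjusted p = 0.0131), but a second Tcf7l1 probe set gave 0.08 (SE 0.15, adjusted p = 0.839), and the call was lost without KO pool 3 (0.41). Bcl9l, which ties beta-catenin to its co-activators, gave 0.47 (SE 0.13) and did not pass (adjusted p = 0.0589).

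The Hes and Runx proteins end in a Groucho-binding tail, and their list, which also holds the Runx partner Cbfb, had 5 of 10 members tested (median 0.04) and 0 called by limma, with 0 at an unadjusted p under 0.05. The tested members were Cbfb, Hes1, Hes5, Hes6 and Hes7; Runx1, Runx2 and Runx3 were not tested. Hes1, the main Notch-driven repressor of many progenitors, read 167, 207 and 159 in wild-type, compared with 98.9, 132 and 199 in KO pools, with overlap (−0.36, SE 0.24, 95% interval −0.88 to 0.16, adjusted p = 0.496). Hes7, known from the somite clock, was dim (34.1 ± 21.9 and 48 ± 1.16, SD, n = 3 each; 0.67, SE 0.38, adjusted p = 0.411).

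Other co-repressors and the histone deacetylases gave small differences. At each gene's brightest probe set, the 13 tested of 15 lay between −0.25 and 0.25 (median −0.02), 0 were called and 0 had an unadjusted p under 0.05 in limma. A dimmer probe set of Sin3a, a scaffold for histone deacetylases, gave −0.54 (SE 0.20, 95% interval −0.99 to −0.10, adjusted p = 0.178), while its brightest gave 0.03 (SE 0.11). Hdac1, a deacetylase that Groucho proteins recruit, read 2051, 1971 and 2168 in wild-type, compared with 1937, 1812 and 1807 in KO pools. The KO pools were all slightly lower (log2 fold change −0.16, SE 0.09, 95% interval −0.35 to 0.04, adjusted p = 0.428). Tbl1xr1, a subunit of the NCoR complex, gave 0.16 (SE 0.11, adjusted p = 0.505). Among kinases and ubiquitin ligases that act on Tle proteins, 8 of 10 were tested and lay between −0.09 and 0.24 (median 0.00), with 0 called by limma and 1 at an unadjusted p under 0.05. That was Huwe1, a ubiquitin ligase (0.24, SE 0.09, adjusted p = 0.195). Cdk1, the mitotic kinase, gave −0.09 (SE 0.09, adjusted p = 0.652). Dimmer probe sets of these genes lay outside the range above in both directions. A dimmer probe set of Xiap, another ligase, gave −0.38 (SE 0.16, adjusted p = 0.221). The highest of Hipk2 and of Csnk2a1 gave 0.59 (SE 0.36, adjusted p = 0.448) and 0.44 (SE 0.23, adjusted p = 0.357).

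**Figure D4:**
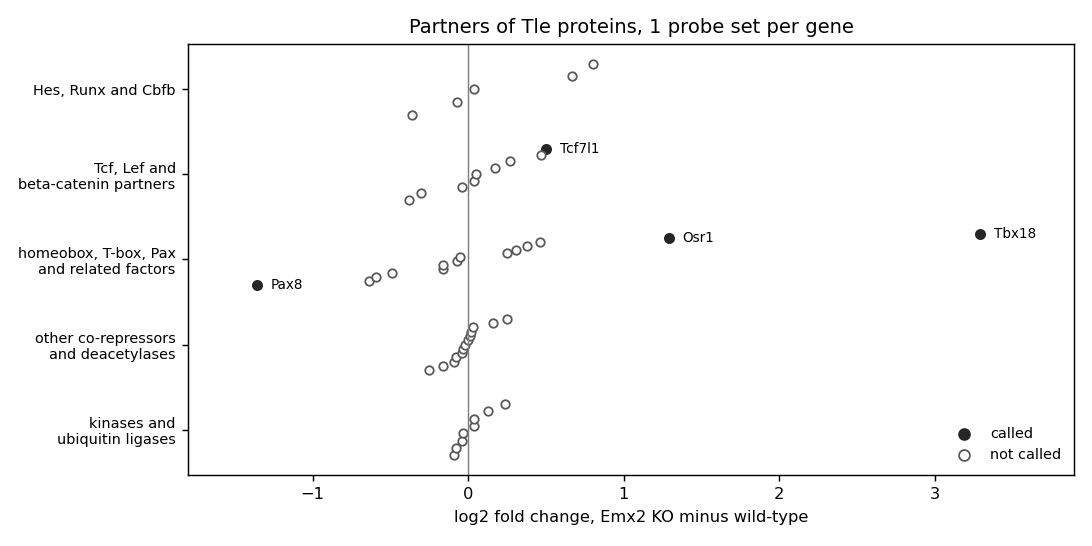
Log2 fold change (x axis) of 49 tested partner genes in 5 lists, 1 point per gene, filled and named where called. Tbx18, Osr1 and Tcf7l1 lie to the right at 3.29, 1.29 and 0.50, Pax8 to the left at −1.36, and co-repressors, kinases and ligases stay between −0.25 and 0.25.

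For the brightest probe set of each member, the genes most like it were taken by Pearson's r of log2 intensity over the 6 arrays, which share the 2 groups and the scaling. Tle1 was followed most closely by Kazn (r = 0.999), Uqcrh (0.996) and Msx2 (0.993), the last being a homeobox gene of the partner lists that gave −0.49 and was not called. For Tle3 these were Cdk6 (1.000), Trpc1 (0.998) and Fhl1 (0.996), with log2 fold changes of 0.49, 0.45 and 1.18. Tle4 was nearest to Psma1 (0.999), Vps9d1 (0.991) and Gm4349 (0.991), and Tle6 to Nsmce4a (0.995), Atp1b1 (0.994) and Rpl27a (0.994). Next to Tle5 stood Grhl3 (0.997, log2 fold change −1.31), Gkap1 (0.993) and 2810410L24Rik (0.993), and next to Tle2 Snrpc (0.997), Fam220a (0.994) and Ctcf (0.993). Such values over 6 arrays are a description of these pools.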

How the data were processed

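The values are intensities deposited by the authors, 1 linear number per probe set and 1-channel array, in the series' value table. Per the submitters' processing notes GCOS 1.2 was used; its algorithm, target level and filter are not given in the sources used here. Their 2% trimmed means ran from 254 to 373 (highest over lowest 1.47, limit set at 5%), so each array was scaled to their mean, 312. A floor was placed at the 20th percentile (8.06) before log2. Leaving out 64 control probe sets and the dimmest 40% (mean log2 value below that of an intensity of 26.7) left 27022. No detection calls were used, and 3 arrays per group limit the precision (median SE 0.188).

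The groups were tested with limma 3.58.1 under R 4.3.3 (lmFit, eBayes with an intensity trend, two-sided), Benjamini-Hochberg adjusted over all tested probe sets, and a probe set is called at an adjusted p under 0.05. The spread behind each p-value is that between pools. The 95% intervals use the same moderated SE and are not adjusted. The fit was tested on simulated data.

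Gene names come from the platform's annotation (34958 with 1 symbol, 932 with several, 9211 with none). All 6 members matched the RefSeq table by gene identifier and kept their symbols. The members and the partner and marker lists were chosen with earlier results of these data known. Named are all Tle probe sets; of each partner list up to 4 called members by size, or the 2 of smallest p where fewer were called; Hes1 and Hdac1; the 3 genes most like each member; and Xist. Emx2, the other markers named with Xist, the dimmer probe sets of partner genes and the genes of the closing section were added.

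Alternatives were quantile and median scaling, values as deposited, other floors, a pseudocount, other filters, array weights, the replicate number as a block, a variance without intensity trend, a threshold of 0.1, cross-hybridising probe sets left out, the mean of a gene's probe sets (for the members, added after seeing the data) and each pool left out in turn. Samples sharing a replicate number did not deviate together (r = −0.07, 0.04 and −0.05 for numbers 1, 2 and 3).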

Additional observations from a re-analysis of the deposited data

How the results depend on the processing

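Of 191 recomputed log2 fold changes of Tle genes and probe sets, 186 stayed within the spread between pools and 5 moved. Of those called, 0 changed sign. Of 206 for the named partners, 193 kept their call status, 10 lost the call and 3 gained it. A change of sign was counted only for partners called in the main fit or the alternative, and 0 were found. The counts of all, higher and lower probe sets, of Tle probe sets and of partner genes called (1264, 742, 522, 5 and 4) became 151, 107, 44, 0 and 1 with no filter, and 541, 317, 224, 1 and 2 with no intensity trend. At a threshold of 0.1 the counts of all and higher were 1939 and 1159. Without rescaling 267 were lower and 3 Tle probe sets were called. With 1 pool left out the ranges were 721 to 1687, 441 to 892, 271 to 795, 3 to 5 and 2 to 6. Counts that moved by over 1.5 times were 721, 450 and 271 without wild-type pool 1, 795 lower without wild-type pool 3, 815, 441 and 3 Tle probe sets without KO pool 1, 834, 468 and 3 without KO pool 2, and 790, 452, 338 and 2 partner genes without KO pool 3. The cause was not tested. The replicate block left 1160 probe sets, 5 Tle probe sets and 4 partner genes called; wild-type pools 1, 2 and 3 correlated best with KO pools 2, 2 and 1 (r = 0.04, 0.04 and 0.13), so 1 of the 3 did so with its own number. Low signal kept 1 probe set each of Tle3 and Tle4 out of the test.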

Other observations

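Hes5, a Notch target of neural progenitors named after its values were seen, read 34.7, 29.4 and 21 in wild-type pools, against 8.41, 1499.5 and 9.07 in KO pools. KO pool 2 alone was high, and the difference of 0.80 (SE 1.42, limma adjusted p = 0.836) rests on it.

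Several partners had groups that did not overlap without passing the threshold in limma, and they too were picked after their values were seen. Lef1, a Wnt-responsive Tcf family member, read 385, 415 and 346 in wild-type, compared with 296, 281 and 300.5 in KO pools (log2 difference −0.38, SE 0.14, adjusted p = 0.163). Msx1, a homeobox repressor, read 277, 256 and 183 against 121, 169 and 168 (−0.64, SE 0.21, adjusted p = 0.113). Tcf7l2 went the other way at its brightest probe set, at 296, 284 and 285 against 334, 342 and 371 (0.27, SE 0.14, adjusted p = 0.335). Its other tested probe sets gave 0.04 (SE 0.30), with overlapping groups, and, on a dim signal, 0.80 (SE 0.34), without overlap. Neither was called. For comparison, 22% of all tested probe sets had groups that did not overlap.

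The 10 letters CCCACGTGGG shared by the promoters of Tle3, Tle4 and Tle6 were followed to other genes. Of 22 tested genes with the element in a promoter window, 2 were called higher and 3 lower. Without the Tle genes 19 remained, with 1 higher and 1 lower (5.26% each), a median log2 fold change of −0.04 against −0.02 over all 9967 tested genes with a promoter entry, of which 2.71% were higher and 2.24% lower. No test was made of these counts.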
